A study of Schizosaccharomyces pombe with 6 samples.

Results

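The untagged strain of this calibrated ChIP-seq series carries no CFP-Cnp1, so none of its peaks can come from the tagged protein. Untagged peaks lay over 96.0% of the arms and *SUMO-KallR* peaks over 93.3%, while WT CFP-Cnp1 had 7 arm peaks. The regions described here are the stretches of chromosome arm that lay under a peak of this untagged strain and under no peak of *SUMO-KallR* cells. A stretch was kept when it was 200 bp or longer, and 849 of 1648 such stretches were. The outermost 100 kb of every chromosome and the 50 kb to either side of the middle of the centromere core were left out, which leaves 11.7 Mb of arms. The stretches were chosen by the starts and ends of the peaks in both lists, so their number, length and place relative to the peaks are a description with no test.

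Calibrated ChIP-seq was done with 3 fission yeast (*Schizosaccharomyces pombe*) strains grown in rich YES medium. *SUMO-KallR* CFP-Cnp1 cells carry *CFP-cnp1:Kan* and *pmt3-KallR*, a form of SUMO in which every lysine is replaced by arginine, so that it is conjugated to proteins but builds no chains. WT CFP-Cnp1 cells carry *CFP-cnp1:Kan* with normal SUMO, and the untagged strain has neither allele. All of them are auxotrophic through alleles of *ade6*, *leu1* and *ura4*, according to the strain list of the study. That list does not mark the ChIP-seq strains, which were matched to it here by the track names in the peak lists. There is 1 ChIP and 1 input library of each strain, and without replicates no difference between strains could be tested. The deposited lists hold peaks and no reads, so the depth behind a single peak is unknown. Heights (the highest −log10 p-value in a peak) depend on the depth of each library and are read within 1 list.

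Cnp1 is the CENP-A of fission yeast, the histone H3 variant that marks active centromeres. It is deposited at the central domain of each centromere, and chromosome arms carry ordinary H3 nucleosomes over most of their length. Arms of this yeast are densely packed with genes, with short AT-rich spacers in which promoters and terminators lie. Solo long terminal repeats (LTRs), the remnants of Tf retrotransposons, are found in many of these spacers, often before promoters. A peak list of the untagged strain marks sequence that the peak caller scored above its estimate of background. Here that was 96.0% of the arms, so a peak is no sign of a site that stands out. None of the untagged peaks can stand for tagged Cnp1.

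Centres of the longest stretch of each kind are printed first, because they show AT-rich spacers and, in the second, a coding repeat. They are given 5′ to 3′ on the plus strand of the RefSeq assembly ASM294v3. In the first and the third, capitals mark uninterrupted runs of 10 or more A or T bases. In the second, capitals mark each copy of AATTACTAGTTC.
Longest stretch between SUMO-KallR peaks, chrII:4403613-4403912, centre of a 1660-bp stretch beside spf38: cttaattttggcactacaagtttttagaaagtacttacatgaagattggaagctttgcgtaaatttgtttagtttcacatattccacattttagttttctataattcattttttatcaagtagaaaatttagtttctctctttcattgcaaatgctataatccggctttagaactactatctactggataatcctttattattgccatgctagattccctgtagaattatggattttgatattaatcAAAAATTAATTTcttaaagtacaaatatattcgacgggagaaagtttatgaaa
Longest stretch with a SUMO-KallR peak at 1 end, chrII:696082-696381, centre of a 1406-bp stretch in SPBPJ4664.02: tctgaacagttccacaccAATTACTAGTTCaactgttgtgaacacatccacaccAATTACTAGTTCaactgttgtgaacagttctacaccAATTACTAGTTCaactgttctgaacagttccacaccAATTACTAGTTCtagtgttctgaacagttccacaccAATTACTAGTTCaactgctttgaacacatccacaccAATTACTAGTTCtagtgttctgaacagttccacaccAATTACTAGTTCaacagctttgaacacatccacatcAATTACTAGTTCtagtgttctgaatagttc
Longest stretch with no SUMO-KallR peak at either end, chrII:3975955-3976254, centre of a 1033-bp stretch near cyc3: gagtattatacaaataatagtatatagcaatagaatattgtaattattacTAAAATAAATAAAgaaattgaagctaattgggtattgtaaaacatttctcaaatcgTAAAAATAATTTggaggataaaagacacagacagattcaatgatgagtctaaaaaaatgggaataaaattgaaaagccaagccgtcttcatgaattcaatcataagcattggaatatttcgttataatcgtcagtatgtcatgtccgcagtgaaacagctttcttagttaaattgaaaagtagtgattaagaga

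The first and the third window each had a GC content of 27.7%, and that of the second was 38.0%. The first window held 1 run of 10 or more A or T bases and the third held 2. The second held 8 copies of AATTACTAGTTC. This sequence of 12 bases, searched on both strands of the 3 chromosomes, occurred 258 times, and 254 of these lay in SPBPJ4664.02. Among all windows of 300 bases on the arms, 0.0917% held it.

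In all, 3 stretches lay wholly within an annotated LTR, and these are printed because LTRs were the annotated class with the greatest share of its bases in the stretches. Capitals again mark runs of 10 or more A or T bases.
LTR stretch of 221 bp, chrII:4231630-4231850: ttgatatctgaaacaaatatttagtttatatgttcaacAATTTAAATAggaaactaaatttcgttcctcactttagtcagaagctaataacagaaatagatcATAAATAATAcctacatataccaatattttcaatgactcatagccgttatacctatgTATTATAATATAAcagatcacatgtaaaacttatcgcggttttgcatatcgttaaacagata
LTR stretch of 233 bp, chrIII:2147865-2148097: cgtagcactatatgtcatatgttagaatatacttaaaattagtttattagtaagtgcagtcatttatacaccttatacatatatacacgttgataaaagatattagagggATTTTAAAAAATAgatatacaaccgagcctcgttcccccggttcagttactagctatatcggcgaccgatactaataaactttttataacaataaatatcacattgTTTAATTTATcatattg
LTR stretch of 261 bp, chrIII:2110884-2111144: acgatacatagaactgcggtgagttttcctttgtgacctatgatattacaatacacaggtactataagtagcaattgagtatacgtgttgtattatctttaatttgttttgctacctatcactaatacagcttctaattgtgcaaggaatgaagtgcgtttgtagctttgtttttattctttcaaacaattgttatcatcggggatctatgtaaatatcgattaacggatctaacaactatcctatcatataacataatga
The GC content of these was 26.7%, 29.2% and 32.2% in the order printed, and the longest of them held no run of 10 or more A or T bases.

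Together the 849 stretches covered 331 kb, and 2.84% of the arm bases lay in them. Their median length was 319 bp, with quartiles of 251 and 473 bp and a maximum of 1660 bp. Of the stretches, 188 were 500 bp or longer and 13 were 1000 bp or longer. The plot of lengths shows the most stretches in the bin next to the threshold, and 479 of 849 (56.4%) were 300 bp or longer. Just inside the threshold, 44 stretches were less than 10 bp above it, with 5 of exactly 200 bp. Just outside it, 56 fell short by 10 bp or less, 2 of them by a single base. The 799 stretches under 200 bp summed to 85.8 kb.

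**Figure D1:**
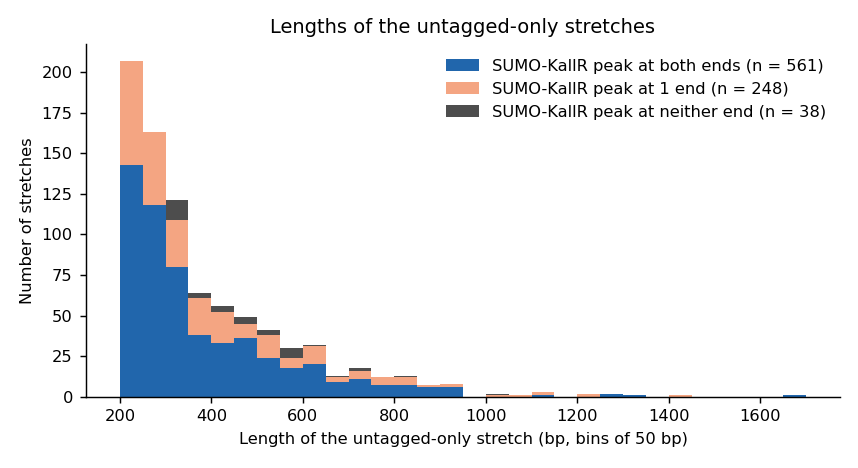
Number of untagged-only stretches (y axis) by length in bp (x axis, bins of 50 bp), stacked by what lay at their ends. The median length was 309 bp with a *SUMO-KallR* peak at both ends, 323.5 bp with 1 at 1 end and 440 bp with none, and the 2 stretches at a border of the arms are not drawn.

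By the peaks as called, most of the stretches split an untagged peak and did not widen a gap of both lists. A *SUMO-KallR* peak adjoined both ends of 561 of the 849 stretches, or 66.1% (exact binomial 95% interval 62.8 to 69.3%, for counting error only). The interval takes the stretches as independent, although up to 9 lay in 1 untagged peak. A stretch with *SUMO-KallR* peaks at both ends is a gap between adjacent *SUMO-KallR* peaks that lay inside 1 untagged peak. With each *SUMO-KallR* peak widened by 200 bp on both sides, 196 stretches were left and the share was 40.8%. That setting shortens a stretch with *SUMO-KallR* peaks at both ends from both sides, and one with a peak at 1 end from 1 side only. The lower share thus follows at least in part from the setting itself. Another 248 stretches (29.2%) had a *SUMO-KallR* peak at 1 end and the end of the untagged peak at the other, and so widened a gap of both lists. Only 38 (4.48%) were whole untagged peaks with no *SUMO-KallR* peak over any base. The remaining 2 ended at a border of the arms. Stretches between *SUMO-KallR* peaks held 213 kb, those at the end of an untagged peak 99.2 kb, and whole untagged peaks 18.1 kb.

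The 38 whole untagged peaks were low. Their heights ran from 1.9 to 18.1 with a median of 3.6, and their widths from 300 to 1033 bp. The untagged peaks that held the other stretches had median heights of 20.3 with *SUMO-KallR* peaks at both ends and 18.6 with 1 at 1 end. An untagged summit lay within 54 stretches, namely all 38 whole peaks, 15 of the stretches at the end of an untagged peak and 1 between *SUMO-KallR* peaks (chrII:3009568-3009809, height 3.3). All other stretches lay away from the highest point of their untagged peak.

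The same division can be read from the gaps, which come from the same peak borders and add no separate evidence. *SUMO-KallR* peaks left 1430 gaps on the arms and untagged peaks left 808. Of the *SUMO-KallR* gaps, 784 (54.8%) lay wholly under untagged peaks, 562 (39.3%) partly and 84 (5.87%) not at all. Of the untagged gaps, 143 (17.7%) lay wholly under *SUMO-KallR* peaks, 364 (45.0%) partly and 301 (37.3%) not at all. Gaps of both lists numbered 685 within the arms, and 244 of them had a stretch on 1 side, 40 on both sides and 401 on neither. At the gaps with a stretch beside them the *SUMO-KallR* gap had a median of 955.5 bp, against 394.5 bp for the untagged gap. A difference in this direction is set by the rule, which lengthens the *SUMO-KallR* gap by 200 bp or more on the side of a stretch. The narrowest gap between neighbouring peaks was 151 bp in both lists, so dips of up to 150 bp do not appear in either.

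Of 814 untagged peaks on the arms, 480 (59.0%) held at least 1 stretch, and no peak held more than 9. Broad untagged peaks of 20 kb or more numbered 199, and 168 of them (84.4%) held a stretch. In all they held 413 stretches, 345 with *SUMO-KallR* peaks at both ends and 68 at the end of the untagged peak, and a median of 3 *SUMO-KallR* peaks lay under each. Per length, however, the broad peaks held the fewest, with 5.90 stretches per 100 kb. Untagged peaks of 5 to 20 kb held 8.35 per 100 kb and those under 5 kb 24.3 per 100 kb. The untagged peak with the most stretches reached over 156 kb (chrI:1667292-1823467, height 21.3). It held 9 of them, 3162 bp in sum, and 17 *SUMO-KallR* peaks with heights of 8.0 to 38.8 lay under it.

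Stretches lay along all arms of the 3 chromosomes. Chromosome I held 369 (69.9 per Mb of arm), chromosome II 338 (79.7 per Mb) and chromosome III 142 (66.0 per Mb). They took up 2.63% of the arms of chromosome I, 3.22% of chromosome II and 2.61% of chromosome III. The median spacing between neighbours was 8864.5 bp, 81 neighbours were less than 1 kb apart, and the longest interval without a stretch, 265 kb on chromosome I, spans the left-out centromere. All 112 full windows of 100 kb held a stretch, with 1 to 16 in each and a median of 7. Density was 105 per Mb in the 200 kb next to the left-out chromosome ends, 35.0 per Mb in the 200 kb next to the left-out centromeres and 73.4 per Mb in the rest. In the plot by window, the full windows nearest to a centromere held 1 to 6 stretches.

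**Figure D2:**
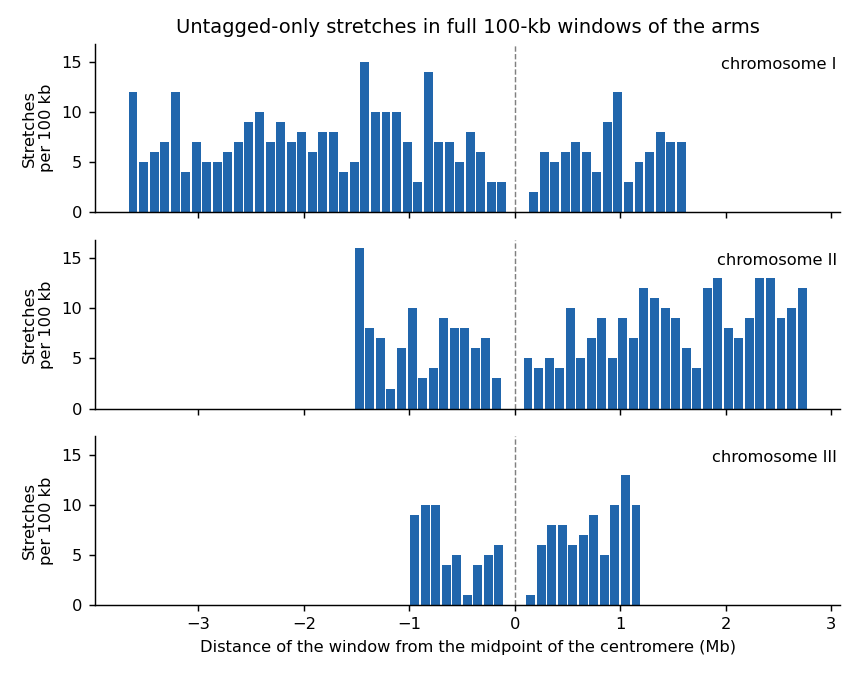
Untagged-only stretches per 100 kb (y axis) in the 112 full windows of the arms, by distance of the window from the midpoint of the centromere in Mb (x axis), 1 panel for each chromosome. Windows held 1 to 16 stretches, and those nearest to the dashed midpoint held 1 to 6.

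The stretches lay mainly outside protein-coding genes. Coding exons made up 7.61% of their bases, against 58.8% of the arms. Non-coding RNA genes made up 36.2%, against 11.6% of the arms, and sequence between annotated genes 39.3%, against 8.86%. Untranslated exons made up 16.1%, against 17.3% of the arms, and introns 0.854%, against 3.26%. From the side of the annotation, 12.6% of the arm bases between genes lay in a stretch, 8.88% of those in non-coding RNA genes, 2.63% of those in untranslated exons, 0.743% of those in introns and 0.367% of those in coding exons. A coding exon was touched by 148 stretches (17.4%), whereas 76.1% of all arm windows of the same lengths touch one. Only 40 stretches lay wholly in coding exons.

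This placing is shared with the other arm bases that a list left uncovered. These parts take in runs of all lengths, whereas the stretches are 200 bp or longer. Untagged-only bases of all lengths were 8.61% coding and 37.7% between genes. Coding exons made up 10.2% of the bases under *SUMO-KallR* peaks alone and 6.12% of those under neither list, against 63.0% of those under both. Sequence between genes made up 25.0% of the bases under *SUMO-KallR* peaks alone and 33.7% of those under neither list. Of these parts the untagged-only stretches thus had the highest share between annotated genes, a class that leaves out non-coding RNA genes. Non-coding RNA genes made up 36.2% of the stretches. They made up 49.2% of the bases under neither list and 48.9% of those under *SUMO-KallR* peaks alone. For all sequence outside protein-coding genes, the bases under neither list had the highest share, above that of the stretches. With 1 library per strain there is no error for either order. Among the bases of the stretches outside protein-coding genes, 54.7% lay between divergent neighbours, 41.7% between tandem ones and 3.58% between convergent ones. For all such arm bases the shares were 47.6%, 46.3% and 6.10%. Bases under *SUMO-KallR* peaks alone had nearly the same shares as the stretches, 55.1%, 41.8% and 3.14%, and those under neither list had 50.6%, 46.0% and 3.47%.

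**Figure D3:**
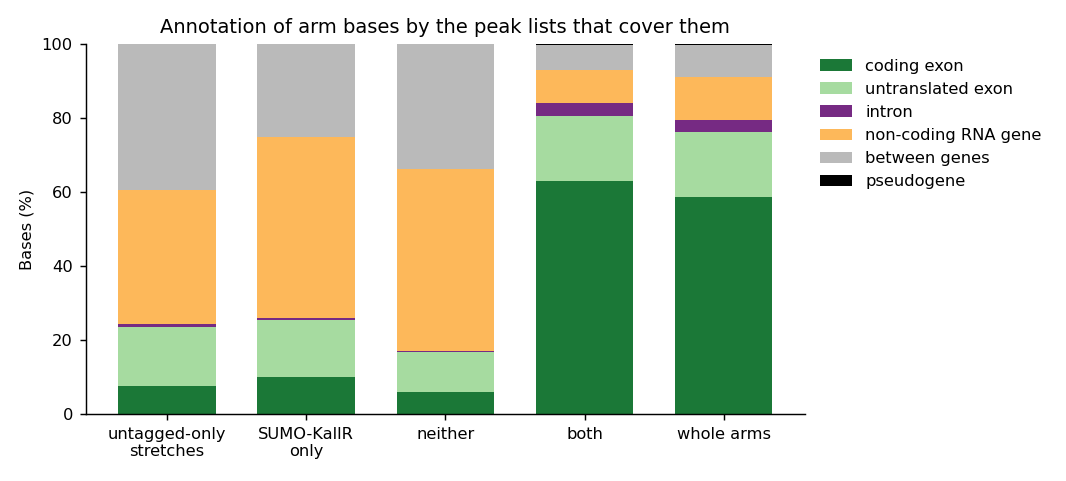
Share of bases in percent (y axis) by annotation, in the untagged-only stretches, in bases under *SUMO-KallR* peaks alone, under neither list and under both, and in the whole arms. Stretches are 200 bp or longer, and the other parts take in all lengths. The coding share was 7.61% in the untagged-only stretches and 63.0% under both lists.

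Around protein-coding genes, the stretches concentrated before the gene start. At 222 bp before the start, 8.61% of 4855 genes were covered by a stretch, the highest value within 1000 bp on either side. At the start itself 4.24% were covered, and at 442 bp into the gene 0.577%, the lowest value. Bases under neither list had their highest share, 7.29%, at 259 bp before the start, and those under *SUMO-KallR* peaks alone had theirs, 2.95%, at 97 bp before it. At the gene end the stretches had a lower maximum, 3.92% at 79 bp beyond it. A gene start lay in 198 stretches (23.3%) and a gene end in 151 (17.8%), while arm windows of the same lengths hold a start in 15.3% and an end in 13.9% of positions. For 541 arm genes the annotation begins with a coding base, so that their start in this profile is a start codon.

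**Figure D4:**
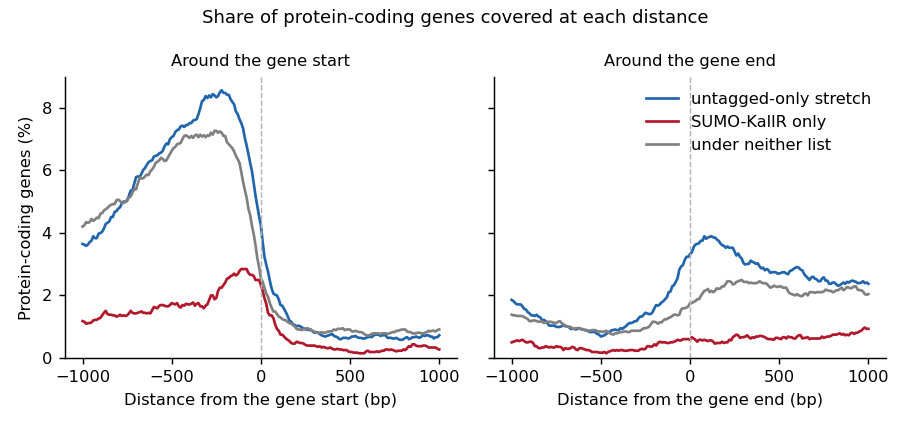
Share of protein-coding genes in percent (y axis) that were covered at each distance in bp from the gene start (left panel) and the gene end (right panel), with negative distances upstream of either point. The untagged-only stretches peaked at 8.61% before the start and at 3.92% beyond the end.

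GC content, which the rule did not use, was low. It was 30.7% over all bases of the stretches, against 36.2% in the arms, 36.5% in bases under both lists, 35.8% under *SUMO-KallR* peaks alone and 33.6% under neither list. These other parts take in all lengths, and untagged-only bases of all lengths had 30.9%. Single stretches ranged from 19.4 to 54.9% with a median of 30.4%, and 12.9% of arm windows of the same lengths lie at or below that median. Compared with the 500 bases on each side, 631 of 849 stretches (74.3%) had a lower GC content. Runs of 10 or more A or T bases, as capitalised in the printed sequences, took up 12.1% of the stretch bases, against 5.58% of the arms and 11.8% of the bases under neither list. A run of 8 or more A, or of 8 or more T, was found in 38.6% of the stretches and is found in 18.3% of arm windows of the same lengths. Spacers of this genome are richer in A and T than its coding exons, and the part that position plays in the low GC content was not tested.

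**Figure D5:**
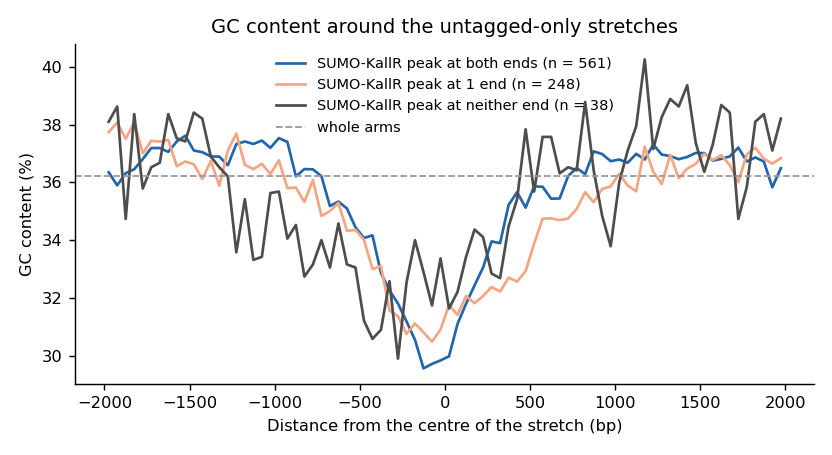
Mean GC content in percent (y axis, bins of 50 bp) by distance from the centre of the stretch in bp (x axis), for the 3 kinds of end, with the whole arms dashed at 36.2%. Stretches between *SUMO-KallR* peaks reached their lowest values near the centre, the line of the 38 whole untagged peaks is ragged, and the 2 stretches at a border are not drawn.

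Reads in the stretches could mostly be placed. Taking each stretch base as the start of a 150-base sequence, 98.5% of these occur once in the genome, against 99.0% in the arms. In 812 stretches every such sequence was unique, and 7 stretches were under 50%. Among these 7 were a pair of stretches in SPBPJ4664.02, 1 in *gsf2* and 2 over an LTR. The part of reads that cannot be placed in these 7 stretches was not tested.

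The longest stretch of all, chrII:4402933-4404592 (1660 bp, GC 29.6%), lay between *SUMO-KallR* peaks of heights 12.3 and 23.7 and under an untagged peak of height 20.5. It covered SPNCRNA.6590 and SPNCRNA.6591 whole and reached 163 bp into *spf38*, which encodes a subunit of the U5 snRNP of the spliceosome. Another long one, chrII:4359678-4360778 (1101 bp), lay before *sid4* and reached 153 bp into it. Sid4 is the scaffold protein of the septation initiation network at the spindle pole body. *SUMO-KallR* heights beside it were 15.2 and 19.5, and the untagged height was 21.9. On chromosome I the longest, chrI:2437450-2438725 (1276 bp), held a whole LTR of 362 bp and 3 whole non-coding RNA genes, between *SUMO-KallR* peaks of heights 17.5 and 17.6 and under an untagged height of 20.0. On chromosome III it was chrIII:2179690-2180992 (1303 bp), which held an LTR and lay between *SUMO-KallR* heights of 19.8 and 11.9 under an untagged height of 30.5.

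Long stretches at the end of an untagged peak had a similar setting. chrI:4603341-4604550 (1210 bp) covered SPNCRNA.4072 whole and 10 bp of *mug157*, with a *SUMO-KallR* height of 18.8 on its left and an untagged height of 18.4. chrII:4160296-4161426 (1131 bp) held an LTR and lay in non-coding RNA genes near *pgk1* and *sam1*, which encode phosphoglycerate kinase and S-adenosylmethionine synthetase. The *SUMO-KallR* height beside it was 16.2 and the untagged height 18.6. chrIII:1684004-1685134 (1131 bp) held an LTR and SPNCRNA.7461 whole, with a *SUMO-KallR* height of 23.3 and an untagged height of 17.8. chrII:1243537-1244623 (1087 bp) overlapped 3 non-coding RNA genes, with a *SUMO-KallR* height of 16.8 and an untagged height of 25.3. chrIII:2319170-2320204 (1035 bp) overlapped an LTR and SPNCRNA.1287, with a *SUMO-KallR* height of 35.4 and an untagged height of 40.6. Of the 150-base sequences that start in it, 72.4% were unique.

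Beside the mating-type locus *mat1* (near *mat1-Mc*), chrII:2116917-2118177 (1261 bp, GC 25.5%) lay between *SUMO-KallR* heights of 10.9 and 18.3 and under an untagged peak of height 72.7, whose summit was elsewhere. As the strains were matched here by track name, the strain list gives the mating type of the untagged strain and leaves that of the *SUMO-KallR* strain open. The part of the mating type in this stretch was not tested. Among whole untagged peaks, the longest was chrII:3975589-3976621 (1033 bp, height 6.2), in SPNCRNA.6376 and SPNCRNA.6377 near *cyc3*. The next were chrIII:172486-173312 (827 bp, height 2.8) in SPNCRNA.1115 and SPNCRNA.1116, and chrIII:1822071-1822796 (726 bp, height 6.6) over SPNCRNA.7511. All 3 lay outside protein-coding genes.

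SPBPJ4664.02, a glycoprotein gene with tandem repeats (chrII:687716-699886, plus strand), had its stretches in coding sequence. There were 4, of 1239 bp (chrII:690875-692113), 592 bp (chrII:692821-693412), 392 bp (chrII:693724-694115) and 1406 bp (chrII:695529-696934). They covered 3629 bp, or 29.8% of the gene, while 2431 bp lay under neither list and 6111 bp under both. The untagged peaks that held them had heights of 34.6, 18.1, 14.2 and 36.3, and the summit of the peak of height 34.6 lay outside its stretch. *SUMO-KallR* peaks of heights 19.0 and 18.5 adjoined only the outer sides of the first and the last stretch. Over the whole gene 75.2% of the 150-base sequences were unique, and in the 4 stretches 49.0%, 68.8%, 45.4% and 55.9%. The part of these repeated sequences in the pattern of peaks was not tested. Of the 5 highest summits held by a stretch, 3 were in this gene. The other 2 were at chrI:934954-935244 (height 14.2), in an untranslated exon of SPAC1687.17C, a Der1 family gene, and at chrII:520697-521102 (height 13.9), in SPNCRNA.4754.

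LTRs were hit often. Of 194 arm LTRs, 87 (44.8%) were overlapped by a stretch, and 67 had 50% or more of their length in stretches. Stretches held 31.7% of all LTR bases, against 10.4% of the arm bases outside protein-coding genes and 2.84% of all arm bases. Another 30.6% of LTR bases lay under neither list. The 87 stretches that carried an LTR had a median length of 391 bp, and 47 lay between *SUMO-KallR* peaks, 38 at the end of an untagged peak and 2 were whole untagged peaks. A *SUMO-KallR* peak at both ends was thus found for 54.0% of stretches with an LTR and 67.5% of the others. Median uniqueness of the LTR stretches was 100%. LTRs covered in full included those at chrIII:187086-187449, chrI:2437580-2437941, chrI:3321466-3321823 and chrI:4715792-4716149. None of the 13 annotated Tf2 genes, the parts of full-length retrotransposons without their LTRs, was overlapped. Of these genes, 10 lay wholly under *SUMO-KallR* peaks and 10 wholly under untagged peaks. LTRs of full-length elements are counted among the 194 and could be overlapped. The LTR beside *Tf2-13* (chrIII:2319921-2320269) had 284 of its 349 bp in a stretch.

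By gene, 1224 of 11697 annotated arm genes were overlapped by at least 1 bp, which is 10.5%. The share was 9.71% for protein-coding genes (471 of 4853) and 11.2% for long non-coding RNA genes (739 of 6593). Overlap reaching 50% of the gene was found for 179 long non-coding RNA genes and 7 protein-coding genes. The protein-coding ones included SPBC83.12 (647 of 952 bp), SPAC11D3.04C (544 of 824 bp), SPAC9G1.14 (360 of 613 bp) and SPBP35G2.17 (332 of 420 bp). Among non-coding RNA genes covered by 50% or more of their length, the most bases were covered in SPNCRNA.6745 (947 bp), SPNCRNA.1287 (916 bp), SPNCRNA.4644 (815 bp) and SPNCRNA.6707 (735 bp). Many annotated non-coding RNA genes overlap each other or a protein-coding gene, so that 1 stretch can count for several.

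Genes transcribed by RNA polymerase III are short, and the few that were overlapped lay mostly or wholly inside a stretch. Of 114 tRNA genes, with a mean length of 77.2 bp against 1359 bp for all genes, 5 (4.39%) were overlapped, and 4 of these lay fully inside a stretch. These 4 were a tRNA-Pro gene (*spl1*), a tRNA-Thr gene (SPATRNATHR.01), a tRNA-Ile gene (SPATRNAILE.02) and a tRNA-Gln gene (SPBTRNAGLN.02). By length, 4.55% of the tRNA gene bases lay in stretches, against 10.4% of all arm bases outside protein-coding genes. *SUMO-KallR* heights on both sides were 14.2 and 18.5 at tRNA-Pro, 15.0 and 13.4 at tRNA-Thr, 16.7 and 17.9 at tRNA-Ile and 19.3 and 22.3 at tRNA-Gln, and the untagged heights were 20.2, 22.3, 23.5 and 23.5. All 4 genes therefore lay in notches between *SUMO-KallR* peaks, whereas 106 of the 114 tRNA genes lay wholly under such peaks. The U6 snRNA gene *snu6*, whose RNA is part of the spliceosome, also lay whole (144 bp) in a stretch of 403 bp, between *SUMO-KallR* heights of 15.3 and 8.9 under an untagged height of 23.5. Of the 72 snRNA and snoRNA genes, 2 (2.78%) were overlapped, *snu6* among them. Of 36 5S rRNA genes 2 (5.56%) were overlapped, SPRRNA.53 over 107 of 115 bp and SPRRNA.29 over 136 of 241 bp. All these shares were below the 10.5% of all annotated genes.

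Among the families of protein-coding genes, most shares were near the 10.5% of all genes or rested on few genes. Ribosomal protein genes were touched in 7 of 125 cases (5.60%), each over its start and by at most 103 bp, in *rpl102*. Meiotic genes (*mug*, *meu*, *mde* and *spo*) were touched in 10 of 125 and membrane transporters in 21 of 163 (12.9%). Histone genes gave 1 of 10, *hht2*, an H3 gene with 67 bp of its untranslated end in a stretch. Glycolytic enzymes gave 2 of 14. In *pgk1* the 368-bp stretch was wholly coding and had a GC content of 54.9%, the highest of all 849, and in *tdh1*, which encodes glyceraldehyde-3-phosphate dehydrogenase, 191 bp of the untranslated end was covered. Heat shock genes, a class taken by gene symbol, gave 3 of 14. Covered were 290 bp in *hsp3104*, whose product is annotated as a ThiJ domain protein and glyoxylase III, and 237 bp in *hsp16*. In *hsp104*, the disaggregase, 258 bp were covered and were coding throughout. Flocculin and adhesin genes, which encode proteins of the cell wall, gave 3 of 6. In *gsf2* the 260-bp stretch was coding, with *SUMO-KallR* heights of 18.3 and 123 beside it under an untagged height of 139.2, and 41.2% of its 150-base sequences were unique. Hexose transporters gave 1 of 6 (*ght8*) and genes of the *wtf* family of meiotic drive genes and their suppressors 3 of 16 with at most 48 bp.

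Kinetochore genes gave 6 of 43 (14.0%). In *fta1*, *fta2*, *fta6* and *sim4*, which encode inner kinetochore proteins, and in *sim3*, the chaperone that escorts Cnp1, a stretch reached 27, 26, 96, 96 and 57 bp into the gene. The sixth was *cnp1* itself. It is singled out here, after its values were seen, because it is the gene that carries the tag in both CFP-Cnp1 strains. An 836-bp stretch (chrII:3537950-3538785) began 554 bp before *cnp1* and ended 282 bp inside it, over 97 bp of untranslated and 185 bp of coding sequence. *SUMO-KallR* heights were 6.6 on the upstream and 10.7 on the downstream side, and the untagged height was 20.8. The untagged strain has the native gene and the *SUMO-KallR* strain the *CFP-cnp1:Kan* allele, and the part of that allele in the stretch was not tested. At *pmt3*, the SUMO gene that differs between the strains, no stretch was found.

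WT CFP-Cnp1 peaks, which the rule did not use, touched none of the 849 stretches. The WT list holds only 7 peaks on the arms, with heights of 2.0 to 6.4, so there was little to overlap.

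The mirror set, stretches under *SUMO-KallR* peaks and no untagged peak by the same rule, was smaller. The 849 untagged-only stretches stood against 205 *SUMO-KallR*-only ones, and their 331 kb against 73.5 kb. Median length was 319 bp for untagged-only stretches and 313 bp for *SUMO-KallR*-only ones. *SUMO-KallR* peaks adjoined both ends of 66.1% of the untagged-only stretches, while 47.8% of the *SUMO-KallR*-only stretches had untagged peaks at both ends. Median GC content was 30.4% for untagged-only stretches and 35.6% for *SUMO-KallR*-only ones. Untagged-only stretches overlapped 87 LTRs and *SUMO-KallR*-only stretches 15. Annotated genes overlapped numbered 1224 and 299. Heat shock genes (3), glycolytic enzymes (2) and hexose transporters (1) had the same count in both sets. Histone, *wtf*, kinetochore, and flocculin and adhesin genes were overlapped by untagged-only stretches alone. Ribosomal protein, meiotic and membrane transporter genes had lower counts in the mirror set. Beside these numbers stands the difference between the lists as wholes, since *SUMO-KallR* had 1436 arm peaks over 93.3% of the arms and the untagged strain 814 over 96.0%, with median arm peak widths of 5141 bp in *SUMO-KallR* and 9068.5 bp in the untagged strain. The paper's reporting summary gives close totals of uniquely mapped *S. pombe* reads for the untagged and *SUMO-KallR* ChIP libraries. The part of depth and of the peak caller's merging in the difference between the lists was not tested.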

How the data were processed

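Peaks of 3 ChIP libraries (*SUMO-KallR* CFP-Cnp1, WT CFP-Cnp1 and untagged, 1 of each) were analysed. After trimming with Cutadapt, the authors aligned reads by Bowtie2 to the *S. pombe* build ASM294v2 and the budding yeast genome, filtered them with Samtools, and used MACS3 for background, scaling and peak calling in each library, with a separate spike-in calibration. No tool versions were found in the sources used here. The labels mention a later, stricter removal of background, without details. The deposited score was divided by 10 and read, by MACS convention, as the highest −log10 p-value in a peak. The lists hold no read depth per peak, and binomial intervals cover counting error only.

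From the lists, arm bases were assigned to both lists, either or neither, and untagged-only stretches of 200 bp or more were kept. They were annotated with RefSeq ASM294v3, within whose 3 chromosomes every peak ended. Overlap meant 1 bp or more. An A/T run meant 10 or more A or T bases, and uniqueness used sequences of 150 bases, the read length. The interval code was tested on simulated peaks. The members, gene classes and the rule for named stretches were chosen with earlier results of these data known. The rule took the 12 longest stretches, the 3 longest of each kind and chromosome, the 5 highest with an untagged summit, and up to 4 genes per class covered by 50% or more. Other families are given as counts, with further genes named after their values were seen. Stretches and bases are not replicates, so no test was made. Python 3.11.15, NumPy 2.4.6, SciPy 1.17.1 and matplotlib 3.10.9 were used. Inputs were not analysed here.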

Additional observations from a re-analysis of the deposited data

How the results depend on the processing

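The 8 quantities with alternatives gave 42 alternative values, of which 22 stayed within 1.5 times the count or within the binomial interval of a share. Values depended on length. With a minimum of 100 bp there were 1288 untagged-only stretches, 60.9% with a *SUMO-KallR* peak at both ends, and 334 *SUMO-KallR*-only ones. With 500 bp there were 188 (131 kb, 60.1%, 35 LTRs) and 33 *SUMO-KallR*-only ones. With gaps of 500 bp or less filled in each list, 384 untagged-only (74.0%) and 102 *SUMO-KallR*-only stretches were left. With peaks of the other list widened by 200 bp on each side, 196 (81.0 kb, 29 LTRs) and 47 were left, and the share with a *SUMO-KallR* peak at both ends was 40.8%. Untagged-only stretches thus outnumbered *SUMO-KallR*-only ones by 3.76 to 5.70 times in all 7 alternatives of length, height, gap, border and widening, against 4.14 times as reported. The share with a *SUMO-KallR* peak at both ends fell under 50% with widening. That fall is at least in part built in, since widening shortens such stretches from both sides.

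A cover of at least 50% left 198 genes. The median over stretches was 30.4% for GC content and 100% for uniqueness, and stretches of 500 bp or more were 97.3% unique. A common height floor of 2.0, a floor of 5 and wider left-out ends and centromeres (200 kb and 100 kb) moved no count by over 1.5 times. No paired analysis was possible because each strain has 1 ChIP library and no result comes from a test. The lists carry no depth, and lists called from single libraries give no error between strains, so a second library of either strain could move the borders of any stretch.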
